A study of Homo sapiens with 12 samples.

Results

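The carboxylesterases CES1, CES2 and CES3, the arylacetamide deacetylase AADAC, the paraoxonases PON1, PON2 and PON3, and the epoxide hydrolases EPHX1 and EPHX2 were followed in human enterocytes grown with or without VD3 and VPA. These 9 genes were taken by name as the enzymes that cleave drug esters, amides, lactones and epoxides, out of 58735 genes in the expression table. The cells were enterocytes differentiated from 1 human induced pluripotent stem cell line, RPChiPS771, and poly-A RNA was sequenced from 12 libraries. Between day 15 and day 23 the cultures were kept in a medium the labels name M3. The groups were 1 µM VD3 (VD3), 100 µM VPA (VPA), both compounds at those doses (VD3VPA) and M3 with no VD3 (Control), with 3 libraries each. Control was taken to have had no VPA either, as read from its title and the labels of the other groups. Nothing in the labels tells whether replicate libraries were grown as separate cultures. The p-values therefore reflect only how these libraries scatter, which could be technical scatter. All groups come from 1 line, and differences between donors were not measured.

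These enzymes open ester, amide, lactone or epoxide bonds by adding water. In the endoplasmic reticulum, carboxylesterases and AADAC activate ester prodrugs and inactivate ester and amide drugs. CES1 is known as the main carboxylesterase of the liver, and CES2 as that of the small intestine. Paraoxonases are calcium-dependent lactonases. PON1 and PON3 circulate on high-density lipoprotein (HDL), while PON2 stays inside cells. Microsomal epoxide hydrolase, EPHX1, detoxifies epoxides that cytochromes P450 make from drugs and aromatic hydrocarbons. Soluble epoxide hydrolase, EPHX2, turns epoxides of fatty acids into diols. VPA is the usual abbreviation of valproic acid, an antiepileptic drug that inhibits histone deacetylases and the EPHX1 enzyme.

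Levels are given in FPKM, fragments scaled to gene length and library depth, which makes them comparable between genes. The libraries held 32160289 to 43998467 fragments. Of the 9 genes, 7 reached at least 1 FPKM in at least 3 libraries and were tested among 12578 genes. CES1 and CES3 stayed under that level in all 12 libraries. The labelled cell type was checked against its markers, of which 17 of 19 enterocyte genes passed that filter. Their summed level was 5674 to 7867 FPKM in VD3, 5574 to 6273 in VPA, 6901 to 8091 in VD3VPA and 2280 to 2495 in Control. APOA4, an apolipoprotein of chylomicrons, made up most of that sum in the treated groups, at a mean of 4538 FPKM in VD3, 3742 in VPA, 5153 in VD3VPA and 719 in Control. Of the 17, 7 rose and 4 fell with VD3, 8 rose and 3 fell with VPA, and 6 rose and 7 fell with both compounds. Among those that rose with VD3, ALPI averaged 218 ± 12.3 FPKM in VD3 and 9.87 ± 0.346 in Control (limma, adjusted p = 5.22e-11). LCT averaged 93.3 ± 3.30 FPKM in VD3 and 4.64 ± 0.579 in Control (limma, adjusted p = 5.22e-11). Sucrase-isomaltase (SI) averaged 0.231 ± 0.0830 FPKM in VD3 and 1.15 ± 0.0840 in Control (SD, n = 3 each; limma, adjusted p = 2.91e-06). Of 15 hepatocyte markers, 13 passed and none was at 0 in every library. The summed hepatocyte level was 32450 to 34449 FPKM in VD3, 32438 to 36843 in VPA, 30856 to 35494 in VD3VPA and 31368 to 32140 in Control, most of it alpha-fetoprotein (AFP). AFP averaged 22931 ± 946 FPKM in VD3, 30636 ± 1670 in VPA, 22799 ± 1598 in VD3VPA and 26953 ± 409 in Control (SD, n = 3 each). Of the 13, 9 rose and 2 fell with VD3, 2 rose and 6 fell with VPA, and 9 rose and 2 fell with both compounds. Over all genes, 31.3% were called higher and 31.2% lower with VD3, 29.6% and 23.1% with VPA, and 31.1% and 33.1% with both. The fibrinogen gene FGB averaged 3371 ± 194 FPKM in VD3 and 633 ± 76.6 in Control (limma, adjusted p = 1.29e-07). Summed mesenchymal markers, with 5 of 10 past the filter, were 132 to 190 FPKM in VD3, 138 to 167 in VPA, 178 to 201 in VD3VPA and 61.0 to 68.3 in Control. Most of that sum was SPARC, with a mean of 150 FPKM in VD3, 128 in VPA, 160 in VD3VPA and 48.1 in Control, and 3 of the 5 did not pass with VD3. Summed gastric markers, with 1 of 7 past the filter and GKN1 and GKN2 at 0, were 33.6 to 45.8 FPKM in VD3, 14.01 to 18.4 in VPA, 16.3 to 19.2 in VD3VPA and 79.4 to 97.5 in Control. Goblet, Paneth and enteroendocrine markers, with 2 of 10 past the filter, summed to 16.4 to 20.3 FPKM in VD3, 21.8 to 30.0 in VPA, 11.7 to 14.4 in VD3VPA and 45.1 to 48.9 in Control. None of 6 pluripotent cell markers passed. The enterocyte, mesenchymal, gastric and goblet, Paneth and enteroendocrine sums moved with the treatments. The hepatocyte sum lay just above Control in VD3 and VPA and overlapped Control in VD3VPA. The part of these cell types in the changes of the hydrolases was not tested. In bulk RNA, fewer cells of a type and less RNA per cell cannot be told apart.

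PON2 was the most abundant of the 9 mRNAs in every group, and CES1 and CES3 were the least abundant. In Control the order of mean FPKM was PON2, EPHX1, CES2, EPHX2, PON1, AADAC, PON3, CES1 and CES3. Ranges of neighbours in that order overlapped for PON1 and AADAC and were otherwise apart. Among 10655 protein-coding genes tested, PON2 stood above 96.3% in Control, EPHX1 above 91.3%, CES2 above 81.4% and PON3 above 31.1%. AADAC changed its place most: it followed EPHX1 in VPA, with a range overlapping that of EPHX2, and stood above only CES1 and CES3 in VD3, where its range overlapped that of PON3. CES2 and EPHX1 overlapped in VD3, and CES2 and EPHX2 overlapped in VD3VPA. PON3 and PON1 overlapped in VPA and in VD3VPA, and CES1 and CES3 in VD3 and in VD3VPA.

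**Figure D1:**
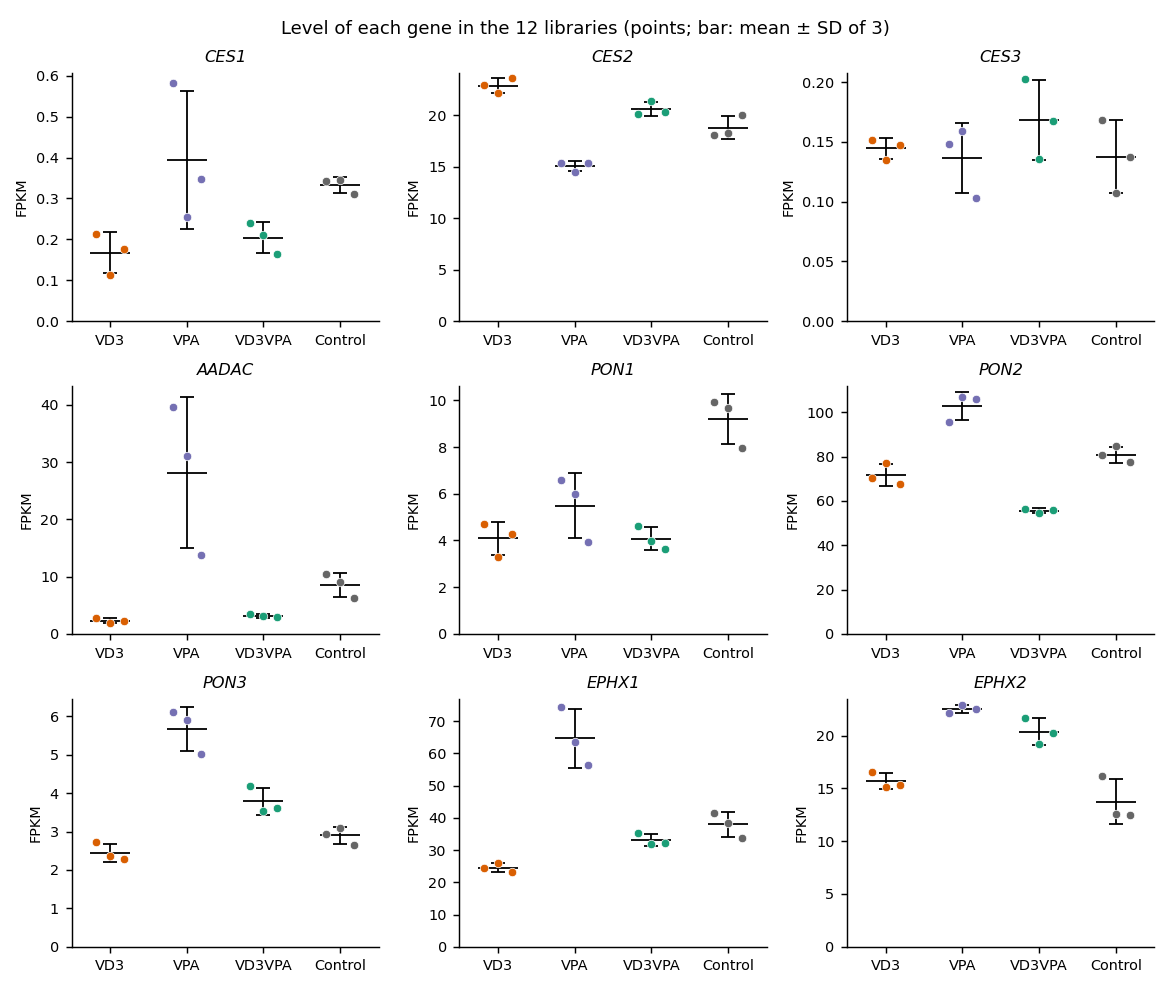
Level of each of the 9 genes in each library (points, FPKM on an axis from 0 of its own for each gene) by group, with bars for the mean ± SD of 3 libraries. AADAC spans 1.96 to 39.6 FPKM across the libraries, while CES2 spans 14.5 to 23.6 FPKM, and CES1 and CES3 lie under 1 FPKM in all of them.

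AADAC, EPHX1 and PON3 all rose with VPA and were all lower in VD3VPA than in VPA, and the sequence just upstream of each is shown because it lets their promoters be compared. PON2 met the same description, but its whole window lies inside the gene of the deposited table and is not printed. The bases lie before the start of the gene in the deposited table, run 5′ to 3′ on the gene's strand, and come from RefSeq on GRCh38.p14. They are chr3:151813866-151814036 on the plus strand, chr1:225809874-225810091 on the plus strand and chr7:95396376-95396625 on the minus strand. Capitals mark matches to any of 8 motifs searched on both strands.
AADAC: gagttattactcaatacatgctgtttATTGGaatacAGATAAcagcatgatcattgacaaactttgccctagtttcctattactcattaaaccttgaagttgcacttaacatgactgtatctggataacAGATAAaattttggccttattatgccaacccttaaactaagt
EPHX1: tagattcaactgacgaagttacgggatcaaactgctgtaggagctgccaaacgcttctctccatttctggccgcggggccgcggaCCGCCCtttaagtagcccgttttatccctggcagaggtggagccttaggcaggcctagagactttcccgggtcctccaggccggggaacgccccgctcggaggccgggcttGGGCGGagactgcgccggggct
PON3: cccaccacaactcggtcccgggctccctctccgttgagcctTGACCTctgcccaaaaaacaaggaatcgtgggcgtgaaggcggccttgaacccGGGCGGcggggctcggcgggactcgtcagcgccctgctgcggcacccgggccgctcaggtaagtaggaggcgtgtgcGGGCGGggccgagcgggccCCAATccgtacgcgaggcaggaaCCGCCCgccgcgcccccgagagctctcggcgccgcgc
The motifs were the TATA box TATAAA, the CCAAT box, the GC box GGGCGG, the nuclear receptor half-site AGGTCA, CAAAGTCCA for HNF4A, GTTAAT as a half-site of HNF1, AGATAA for GATA factors and TGACNNNGC for NRF2. In the 250 bases before the RefSeq start, AADAC held AGATAA at -214 and -121 and CCAAT on the other strand at -224, counted from the RefSeq start. EPHX1 held GGGCGG at -54 and, on the other strand, at -165. The promoter set held 3 starts for EPHX1, and only the window nearest the gene start of the deposited table was searched. PON3 held GGGCGG at -156, at -79 and, on the other strand, at -37, CCAAT at -60 and AGGTCA on the other strand at -209. Among 35116 promoter windows of the same length, 9.17% held AGATAA, 32.0% CCAAT, 42.6% GGGCGG and 12.1% AGGTCA. Matches to TATAAA occurred in 10.7%, CAAAGTCCA in 0.325%, GTTAAT in 6.23% and TGACNNNGC in 10.9% of them, and in none of these 3 windows. The AADAC window had a GC content of 35.6%, and 6.19% of all windows had a lower one. GC content was 63.2% for EPHX1 and 72.8% for PON3, against a median of 58.0% over all windows. No motif was held by all of these 3 windows. Windows were also found for CES2, PON1 and PON2. CES1 and CES3 had no entry, and no window was used for EPHX2. The whole AADAC window lies inside the antisense gene AADACL2-AS1.

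CES2 (ENSG00000172831, chromosome 16, 66934444 to 66945096, plus strand, GRCh38) made up 95.5% to 98.9% of the summed FPKM of CES1, CES2 and CES3 in each library. That sum leaves out CES4A, a further carboxylesterase gene. CES4A averaged 5.44 FPKM in VD3, 2.80 in VPA, 5.03 in VD3VPA and 3.26 in Control. CES2 activates irinotecan among other prodrugs. Its level was 22.9, 22.1 and 23.6 FPKM in the 3 VD3 libraries, 15.4, 14.5 and 15.3 in VPA, 20.1, 21.4 and 20.3 in VD3VPA and 18.03, 18.3 and 20.1 in Control. Every VD3 library was above and every VPA library below every Control library, and VD3VPA lay just above the Control range. VD3 raised CES2 by 0.27 on the log2(FPKM + 1) scale (SE 0.0485, limma, Benjamini-Hochberg adjusted p = 0.000476). VPA lowered it, with a log2 change of -0.30 (limma, adjusted p = 0.000326). In VD3VPA, CES2 was higher than in VPA by 0.43 (adjusted p = 1.26e-05), and its differences from VD3, -0.14 (adjusted p = 0.0381), and from Control, 0.13 (adjusted p = 0.0391), were small. The difference of VD3VPA from Control lost its call without Control replicate 1 (adjusted p = 0.121), Control replicate 2 (0.108), VD3 replicate 1 (0.0519), VD3VPA replicate 2 (0.142) or VD3VPA replicate 3 (0.0626). It was also lost with equal FPKM sums (0.090, adjusted p = 0.222), without the filter (0.0658) and in a fit of the 2 groups (0.0820). The difference of VD3VPA from VD3 lost it without VD3 replicate 1 (adjusted p = 0.0877), VD3 replicate 3 (0.116), VD3VPA replicate 1 (0.119) or VD3VPA replicate 3 (0.109), as well as without the filter (0.0704), with equal FPKM sums (0.102) and with quantile normalization (0.0956).

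CES1 (ENSG00000198848, chromosome 16, 55802851 to 55833337, minus strand), which clears clopidogrel and methylphenidate in liver, was barely detected and was lower in libraries with VD3. It had 0.212, 0.113 and 0.176 FPKM in VD3, 0.583, 0.256 and 0.347 in VPA, 0.240, 0.210 and 0.163 in VD3VPA and 0.344, 0.345 and 0.311 in Control. All VD3 libraries lay below all Control libraries, and all VD3VPA libraries below all VPA libraries. These levels rest on 13 to 61 fragments per library, with group sums of 50 in VD3, 120 in VPA, 66 in VD3VPA and 121 in Control. An exact permutation test of VD3 labels within each VPA level, two-sided over 400 relabelings, gave a mean difference of -0.179 FPKM with p = 0.005, the smallest it can give (adjusted over 6 such tests, 0.015). This test was chosen after the values were seen. In the limma fit without the filter, CES1 did not pass in VD3 against Control (log2 change -0.19, adjusted p = 0.10). CES1P1, the near copy of CES1, was listed at 0 in all libraries.

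The balance of CES1 and CES2 moved toward CES2 with VD3. CES2 exceeded CES1 by 108, 196 and 134 times in VD3, 26.3, 56.6 and 44.2 times in VPA, 83.7, 102 and 124 times in VD3VPA and 52.5, 53.0 and 64.5 times in Control. Libraries with VD3 all lay above all libraries without it. The log2 of CES1 over CES2 differed by -1.33 with VD3 against without it, averaged over both VPA levels (exact permutation test, two-sided, p = 0.005, adjusted over 6 tests 0.015). With VPA against without it the difference was 0.48 (exact permutation p = 0.05, adjusted 0.10), which did not pass. Without VPA replicate 2 that difference was 0.60 (exact permutation p = 0.01). It was 0.58 without VD3 replicate 1 (exact p = 0.03) and 0.55 without VD3VPA replicate 3 (exact p = 0.04). These p-values were not adjusted over the tests, and the exact p reached 0.125 with another library left out. CES3 (ENSG00000172828, chromosome 16, 66961237 to 66975148, plus strand) ranged from 0.103 to 0.202 FPKM, on 18 to 34 fragments, and its groups overlapped. No difference was detectable at this depth for VD3 (exact permutation p = 0.26) or VPA (exact permutation p = 0.475).

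**Figure D2:**
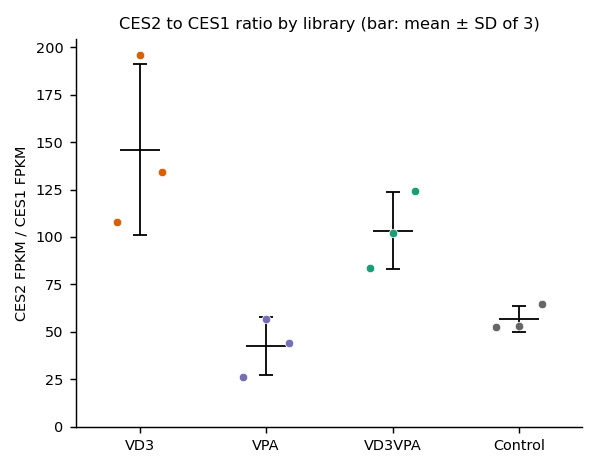
Ratio of CES2 to CES1 FPKM in each library (points, axis from 0) by group, with bars for the mean ± SD of 3 libraries. VD3 libraries lie between 108 and 196 and VD3VPA libraries between 83.7 and 124, above VPA libraries at 26.3 to 56.6 and Control libraries at 52.5 to 64.5.

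AADAC (ENSG00000114771, chromosome 3, 151814037 to 151828488, plus strand) showed the widest range of the 9 genes as a ratio of highest to lowest FPKM. It is an esterase of the endoplasmic reticulum membrane in liver and intestine that hydrolyses flutamide, phenacetin and rifamycins. It had 2.70, 1.96 and 2.29 FPKM in VD3, 39.6, 31.0 and 13.8 in VPA, 3.43, 3.11 and 2.87 in VD3VPA and 10.5, 9.001 and 6.19 in Control. The VPA libraries were all above and the libraries with VD3 all below the Control range, and VPA replicate 3 stood lower than the other VPA libraries. Mean FPKM was 3.29-fold higher in VPA than in Control, and 3.69-fold lower in VD3 than in Control. The log2 changes were 1.52 with VPA (SE 0.296, limma, adjusted p = 0.00122) and -1.51 with VD3 (adjusted p = 0.000923). With both compounds AADAC stayed near the VD3 level, 8.97-fold below VPA alone (log2 change -2.70, limma, adjusted p = 9.34e-06) and -1.18 against Control (adjusted p = 0.00424). VD3VPA libraries were all above VD3 libraries, yet the difference of 0.32 did not pass (adjusted p = 0.436, 95% interval -0.33 to 0.97). Fitted on those 2 groups alone, it passed (adjusted p = 0.0301, with a range of 0.0301 to 0.643 over all alternatives).

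EPHX1 (ENSG00000143819, chromosome 1, 225810092 to 225845563, plus strand) rose with VPA and fell with VD3, as AADAC did, by smaller amounts. Its level was 24.6, 25.8 and 23.1 FPKM in VD3, 74.3, 63.4 and 56.3 in VPA, 35.3, 31.9 and 32.1 in VD3VPA and 41.6, 38.6 and 33.9 in Control. VPA libraries were all above Control and VD3 libraries all below it, and VD3VPA overlapped Control. EPHX1 rose 1.70-fold in mean FPKM with VPA (log2 change 0.75, SE 0.0975, limma, adjusted p = 6.95e-05) and fell with VD3 (-0.61, adjusted p = 0.000203). In VD3VPA it was lower than in VPA (-0.94, adjusted p = 5.89e-06) and higher than in VD3 (0.42, adjusted p = 0.00653). Against Control it did not pass in VD3VPA (-0.19, adjusted p = 0.106, 95% interval -0.41 to 0.02). That difference passed without Control replicate 3 (-0.27, adjusted p = 0.0376) and with equal FPKM sums (-0.23, adjusted p = 0.0371). EPHX1 shares 4681 bases with AL591895.1 on the other strand, and the strand setting of the counting is not given in the sources used here. Without strand, fragments of the pair cannot be told apart. AL591895.1 averaged 22.7 ± 1.18 FPKM in VD3, 13.04 ± 0.640 in VPA, 22.3 ± 1.26 in VD3VPA and 13.9 ± 2.49 in Control (SD, n = 3 each).

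EPHX2 (ENSG00000120915, chromosome 8, 27490779 to 27545564, plus strand) rose with VPA whether or not VD3 was present. It had 16.5, 15.2 and 15.3 FPKM in VD3, 22.1, 22.9 and 22.6 in VPA, 21.7, 19.2 and 20.3 in VD3VPA and 16.2, 12.6 and 12.5 in Control. Libraries with VPA were all above all libraries without it, and VD3 overlapped Control because Control replicate 1 was as high as the VD3 libraries. The log2 change was 0.68 in VPA against Control (SE 0.0833, limma, adjusted p = 4.36e-05) and 0.36 in VD3VPA against VD3 (adjusted p = 0.00645). VD3VPA was higher than Control by 0.54 (adjusted p = 0.000133). VD3 alone did not pass (0.19, adjusted p = 0.0723, 95% interval 0.0025 to 0.37). It passed without Control replicate 1 (0.30, adjusted p = 0.000748) and with voom on recovered fragments (0.21, adjusted p = 0.0315). VD3VPA against VPA did not pass either (-0.14, adjusted p = 0.169), but passed without Control replicate 1 (adjusted p = 0.0266) and in a fit of the 2 groups (0.0374).

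The 3 paraoxonase genes lie side by side on the minus strand of chromosome 7, and each had a pattern of its own. PON1 (ENSG00000005421, 95297676 to 95324707), the HDL-bound enzyme that hydrolyses paraoxon and other organophosphates, was highest in Control. It had 4.69, 3.31 and 4.29 FPKM in VD3, 6.60, 5.97 and 3.92 in VPA, 4.62, 3.96 and 3.65 in VD3VPA and 9.94, 9.66 and 7.97 in Control. Every Control library was above every treated library, and the 3 treated groups overlapped one another. PON1 fell 2.24-fold in mean FPKM with VD3 (log2 change -1.004, SE 0.156, limma, adjusted p = 0.000165), and it fell with VPA (-0.67, adjusted p = 0.00377) and with both compounds (-1.01, adjusted p = 0.000146). Its difference between VD3VPA and VD3 was -0.0018 (adjusted p = 0.995, 95% interval -0.34 to 0.34). Between VD3VPA and VPA it was -0.34 (adjusted p = 0.0790), and -0.53 without VPA replicate 3, which passed (adjusted p = 0.00440).

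PON2 (ENSG00000105854, 95404863 to 95435329), an intracellular lactonase known to limit oxidative stress and to cleave bacterial quorum-sensing lactones, was higher than Control with VPA and lowest with both compounds. It had 70.4, 77.3 and 67.8 FPKM in VD3, 95.5, 107 and 106 in VPA, 56.6, 54.6 and 55.7 in VD3VPA and 80.7, 84.6 and 77.4 in Control. No pair of groups overlapped, and all VD3VPA libraries lay below all VD3 libraries. The log2 change was 0.34 with VPA (SE 0.0593, limma, adjusted p = 0.000554), -0.53 with both (adjusted p = 1.03e-05) and -0.87 in VD3VPA against VPA (adjusted p = 1.74e-07). VD3VPA was also below VD3 (-0.36, adjusted p = 0.000854). The fall with VD3 alone, -0.17 (adjusted p = 0.0260), lost its call without Control replicate 2 (adjusted p = 0.0893), VD3 replicate 1 (0.0763) or VD3 replicate 3 (0.10). It was also lost in a fit of those 2 groups alone (0.0611) and without the filter (0.0587).

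PON3 (ENSG00000105852, 95359944 to 95396368), which hydrolyses statin lactones, rose with VPA with or without VD3. It had 2.72, 2.36 and 2.27 FPKM in VD3, 6.11, 5.91 and 5.03 in VPA, 4.19, 3.55 and 3.62 in VD3VPA and 2.94, 3.10 and 2.66 in Control. Libraries with VPA were all above libraries without it, and the VD3 and Control ranges overlapped. PON3 rose 1.96-fold in mean FPKM with VPA (log2 change 0.77, SE 0.0784, limma, adjusted p = 1.05e-05). In VD3VPA it was above VD3 (0.47, adjusted p = 0.000924) and above Control (0.29, adjusted p = 0.00620), and below VPA (-0.48, adjusted p = 0.000227). VD3 alone did not pass (-0.18, adjusted p = 0.0682). It passed without Control replicate 3 (adjusted p = 0.0450), VD3 replicate 1 (0.0360) or VPA replicate 3 (0.0440). The same fall also passed with equal FPKM sums (-0.21, adjusted p = 0.0279) and with quantile normalization (-0.19, adjusted p = 0.0451).

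Counted together, VPA was the treatment in which every tested hydrolase differed from Control. With VPA, 5 of the 7 rose (AADAC, PON2, PON3, EPHX1 and EPHX2) and 2 fell (CES2 and PON1), where 52.7% of all 12578 genes were called at an adjusted p under 0.05, 29.6% higher and 23.1% lower. AADAC changed at least 2-fold, as did 2.89% of all genes. All 7 had groups that did not overlap, as had 57.5% of all genes. The median size of the log2 change was 0.68 over the 7 and 0.20 over all genes. Across all genes 56.2% of the VPA calls were higher, and 44.0% when each library was scaled to an equal sum of FPKM, while the 7 members kept their directions under that scaling. With VD3, 1 rose (CES2), 4 fell (AADAC, PON1, PON2 and EPHX1) and 2 did not pass, beside 62.5% of all genes called, 31.3% higher and 31.2% lower. AADAC and PON1 also changed at least 2-fold with VD3, as did 6.4% of all genes. Groups did not overlap for 5 of the 7 members with VD3, and for 65.9% of all genes.

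With both compounds against Control, 3 members were higher (CES2, PON3 and EPHX2), 3 lower (AADAC, PON1 and PON2) and EPHX1 did not pass, beside 64.2% of all genes called, 31.1% higher and 33.1% lower. AADAC and PON1 passed 2-fold, as did 7.61% of all genes, and 6 members had groups that did not overlap, as had 68.9% of all genes. The share of members called with VD3 was near that of all genes. Against VPA alone, 1 of the 7 was higher in VD3VPA (CES2), 4 were lower (AADAC, PON2, PON3 and EPHX1) and 2 did not pass, with 63.3% of all genes called, 28.6% higher and 34.7% lower. AADAC passed 2-fold, as did 7.74% of all genes, and 6 members had groups that did not overlap, as had 70.1% of all genes. Against VD3 alone, 3 were higher in VD3VPA (PON3, EPHX1 and EPHX2), 2 lower (CES2 and PON2) and 2 did not pass, with 34.7% of all genes called, 17.5% higher and 17.2% lower. No member passed 2-fold, which 0.93% of all genes did, and 6 had groups that did not overlap, as had 51.4% of all genes. The comparisons share libraries, so their values are given side by side only.

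**Figure D3:**
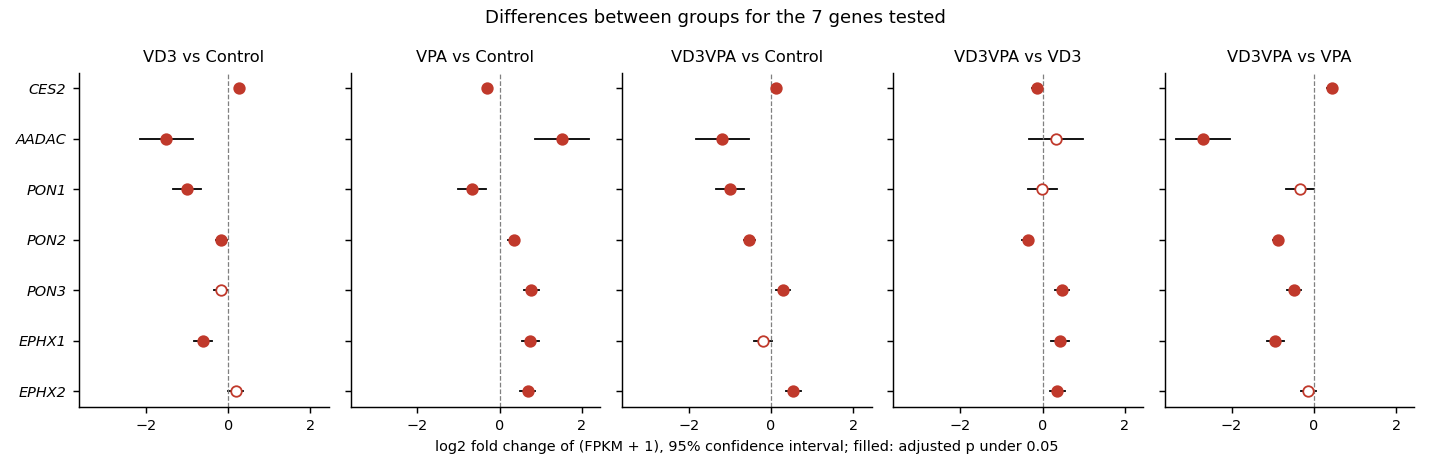
Log2(FPKM + 1) change of each of the 7 tested genes in each comparison, from the limma fit, with lines for the 95% confidence interval and filled points for an adjusted p under 0.05. With VPA against Control AADAC lies at 1.52 and CES2 at -0.30, and in VD3VPA against VPA AADAC lies at -2.70 and CES2 at 0.43.

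The 2 × 2 layout allows a direct test of whether VD3 acted differently with VPA present, as the VD3 change with VPA minus the VD3 change without it. PON2 gave -0.70 (SE 0.0838, limma, adjusted p = 7.32e-05): VD3 changed it by -0.87 with VPA and by -0.17 without. AADAC gave -1.19 (adjusted p = 0.0373), EPHX2 -0.32 (adjusted p = 0.0436) and PON3 -0.30 (adjusted p = 0.0446), each lower with VPA present. The VD3 change of AADAC was -2.70 with VPA and -1.51 without, that of EPHX2 -0.14 and 0.19, and that of PON3 -0.48 and -0.18 in the same order. PON1 gave 0.67 (adjusted p = 0.0292), with a change by VD3 of -0.34 with VPA and -1.004 without it. CES2 (0.16, adjusted p = 0.0863) and EPHX1 (-0.33, adjusted p = 0.0732) did not pass. Thus 1 member was called higher and 4 lower, beside 44.3% of all genes called, 19.0% higher and 25.3% lower. AADAC's value passed 2-fold, as did 3.68% of all genes. Higher calls made up 43.0% of the calls over all genes, and 55.8% with equal sums of FPKM.

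Of these 5 interaction calls, that of PON2 was the one kept under all 19 alternatives and left-out libraries. The PON1 call was lost without Control replicate 1, Control replicate 2, VD3 replicate 2 or VD3VPA replicate 1 (adjusted p = 0.0590 to 0.0707). The AADAC call was lost without Control replicate 2 or 3, VD3 replicate 1 or 3, VPA replicate 1 or 2, or any VD3VPA library (adjusted p = 0.0530 to 0.0846), and without VPA replicate 3 the value was -1.62 (adjusted p = 0.000497). The PON3 call was lost without Control replicate 1 or 3, VD3 replicate 1 or 2, VPA replicate 1 or 2, or VD3VPA replicate 2 or 3 (adjusted p = 0.0601 to 0.104). The EPHX2 call was lost without Control replicate 2 or 3, any VD3 library, any VPA library, or VD3VPA replicate 2 or 3 (adjusted p = 0.0565 to 0.0990). Without the filter, the calls of PON1 (adjusted p = 0.0938), AADAC (0.119), PON3 (0.119) and EPHX2 (0.117) were lost. A pseudocount of 0.1 lost those of AADAC (0.0529) and PON3 (0.0695), and voom those of AADAC (0.175) and PON3 (0.102). Equal FPKM sums lost those of PON3 (0.0842) and EPHX2 (0.0727), and quantile normalization those of PON3 (0.0510) and EPHX2 (0.131). EPHX1 passed without Control replicate 1 (adjusted p = 0.0422) or VPA replicate 3 (0.0209), and with a replicate block (0.0171). CES2 passed with equal FPKM sums (0.23, adjusted p = 0.0493), quantile normalization (0.28, 0.0110) or voom on recovered fragments (0.20, 0.0354).

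**Figure D4:**
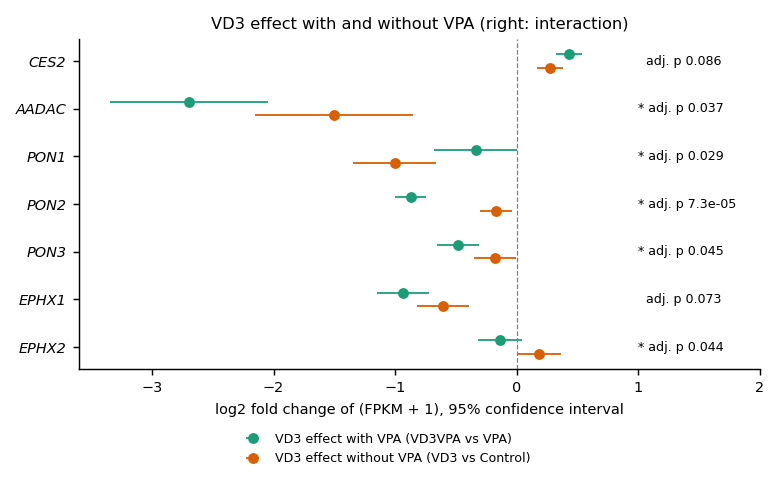
Log2(FPKM + 1) change with VD3 for each tested gene, in cultures with VPA (upper point of each pair, VD3VPA against VPA) and without it (lower point, VD3 against Control), with lines for the 95% confidence interval and the adjusted p of the difference at the right. For PON2 the points lie at -0.87 and -0.17 with intervals apart.

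Over the 12 libraries, AADAC and EPHX1 had a Pearson r of 0.96 in log2(FPKM + 1), and CES2 ran against them, with r of -0.95 against AADAC and -0.98 against EPHX1. PON3 and EPHX1 had an r of 0.90. These values describe libraries that share treatments and carry no test. Among all tested protein-coding genes, the patterns most like AADAC were those of CFAP69 (r = 0.988) and PHYH (0.987), PHYH being the peroxisomal phytanoyl-CoA hydroxylase. For EPHX1 they were COX7A2L (0.987) and ACAD10 (0.987). For CES2 they were SSH1 (0.987) and CAVIN3 (0.981). For PON1 they were POLRMT (0.955) and SRPRB (0.952), for PON2 CYSTM1 (0.989) and ZC3H12A (0.987), for PON3 PRCP (0.987) and BTN2A2 (0.986), and for EPHX2 FAM174A (0.973) and RBPMS2 (0.966).

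Of the other hydrolases of drug and lipid esters, more rose than fell with VPA. Of 22 listed, 16 were tested, and 9 rose, none fell and 7 did not pass with VPA, where 29.6% of all genes were called higher and 23.1% lower, with a median log2 change of 0.22 beside 0.01 over all genes. LIPA, the lysosomal acid lipase, averaged 171 ± 7.601 FPKM in VPA and 87.2 ± 7.76 in Control (SD, n = 3 each; limma, adjusted p = 4.16e-07). GUSB, the lysosomal beta-glucuronidase and a glycosidase rather than an esterase, averaged 70.9 ± 1.54 FPKM in VPA and 42.1 ± 1.77 in Control (limma, adjusted p = 3.08e-07), and LIPE, hormone-sensitive lipase, 3.76 ± 0.278 and 1.25 ± 0.230 (adjusted p = 6.86e-07). In VD3VPA against VPA, 4 were higher and 10 lower, beside 28.6% and 34.7% of all genes. LIPA averaged 79.6 ± 3.20 FPKM in VD3VPA (limma, adjusted p = 3.59e-08 against VPA). With VD3 against Control, 6 rose and 7 fell, beside 31.3% and 31.2% of all genes. MGLL, the lipase of monoacylglycerols, averaged 8.51 ± 0.613 FPKM in VD3 and 2.88 ± 0.461 in Control (limma, adjusted p = 1.29e-07), while ESD, which hydrolyses S-formylglutathione, averaged 7.92 ± 0.318 in VD3 and 12.7 ± 0.831 in Control (adjusted p = 6.13e-07).

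Genes that form epoxides or open them by other routes rose more often than they fell with VD3. Of 12 listed, 10 were tested. With VD3, 7 rose and 2 fell, beside 31.3% of all genes called higher and 31.2% lower. With VPA, 1 rose and 4 fell, beside 29.6% and 23.1% of all genes. In VD3VPA against VPA, 8 were higher and 1 lower, beside 28.6% and 34.7% of all genes. CYP1A1, which oxidises aromatic hydrocarbons, averaged 650 ± 25.0 FPKM in VD3 and 272 ± 39.5 in Control (limma, adjusted p = 1.72e-07). CYP1B1, a related hydrocarbon oxidase, averaged 78.1 ± 4.58 FPKM in VD3, 21.8 ± 0.114 in VPA, 62.2 ± 0.866 in VD3VPA and 35.9 ± 5.56 in Control, and differed from Control in VD3 (limma, adjusted p = 6.65e-07) and VPA (5.26e-05). Thus EPHX1 fell and CYP1B1 rose with VD3, and EPHX1 rose and CYP1B1 fell with VPA. With both compounds CYP1B1 was above Control (limma, adjusted p = 8.64e-06), while EPHX1 did not pass (0.106). CYP1A1 averaged 266 ± 8.14 FPKM in VPA, near its Control level. LTA4H, the zinc hydrolase of leukotriene A4, fell with VD3 to 3.61 ± 0.200 FPKM, against 5.38 ± 0.382 in Control (limma, adjusted p = 1.68e-05).

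All 9 listed HDL partners of the paraoxonases were tested, and with VD3 7 rose and none fell, where 31.3% of all genes were called higher and 31.2% lower. With VPA 6 rose and 1 fell, where the shares over all genes were 29.6% and 23.1%. APOA1, the main protein of HDL, averaged 18481 ± 1722 FPKM in VD3, 17605 ± 741 in VPA, 18228 ± 976 in VD3VPA and 6918 ± 747 in Control, higher in VD3 (limma, adjusted p = 2.25e-07) and in VPA (8.32e-07). SCARB1, the HDL receptor, averaged 92.3 ± 3.55 FPKM in VD3 and 46.1 ± 1.45 in Control (limma, adjusted p = 6.25e-09). CLU, an apolipoprotein carried with PON1, averaged 30.7 ± 1.76 FPKM in VD3VPA and 9.82 ± 0.384 in Control (limma, adjusted p = 6.51e-10). PON1 itself fell in each of these treatments.

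Of 18 listed nuclear receptors and factors that regulate drug-metabolising genes, 17 were tested. With VD3 7 rose and 3 fell, and with VPA 3 rose and 6 fell, beside calls for 62.5% (VD3) and 52.7% (VPA) of all genes. The shares of these regulators called were near those of all genes. AHR, the aryl hydrocarbon receptor, averaged 9.52 ± 0.957 FPKM in VD3, 2.12 ± 0.104 in VPA, 5.36 ± 0.161 in VD3VPA and 3.53 ± 0.387 in Control (limma, adjusted p = 8.27e-08 for VD3 and 8.72e-05 for VPA against Control). PPARA, the fatty acid receptor, averaged 8.33 ± 0.737 FPKM in VD3VPA and 3.87 ± 0.119 in Control (limma, adjusted p = 1.72e-06). NR1I2, the pregnane X receptor, averaged 0.343 ± 0.0386 FPKM in VD3VPA and 1.51 ± 0.388 in Control (limma, adjusted p = 9.85e-06). KEAP1, the repressor of NRF2, averaged 8.81 ± 0.649 FPKM in VPA and 12.5 ± 1.01 in Control (limma, adjusted p = 9.25e-05).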

How the data were processed

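RNA-seq was analysed from the table of FPKM per gene that the authors deposited, with the gene length beside it. Per the submitters' processing notes, the tools were HISAT2 2.0.5, DESeq2 1.20.0 and featureCounts 1.5.0-p3, on GRCh38.p13. What each did, and with which settings, is not given in the sources used here. FPKM times gene length gave whole fragments for 100% of values (within 0.01), 32160289 to 43998467 per library. Start and end of all 58735 genes matched GENCODE 29.

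The 12578 genes that reached 1 FPKM in 3 or more libraries were fitted on log2(FPKM + 1) in limma 3.58.1 (R 4.3.3) with a trended prior, 1 mean per group and 8 residual degrees of freedom. Fold changes on this scale understate the change of low genes. P-values were adjusted by Benjamini-Hochberg over all genes within each of 6 comparisons, with 0.05 as the threshold for a call. SDs are over the 3 libraries of a group. Single values were tested by exact permutation with NumPy 2.4.6 in Python 3.11.15. Depth limits CES1 and CES3 most, and counts cover counting error only.

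The members and lists were chosen with earlier results of these data known. All 9 members are given, from each other list up to 3 genes a comparison with the smallest adjusted p, and for each tested member the 2 protein-coding genes with the highest Pearson r. Overlapping or near-copy genes are named for that reason, and CES4A as a further carboxylesterase gene. Alternatives were a pseudocount of 0.1, no filter, a mean of at least 1 FPKM, equal FPKM sums, quantile normalization, a replicate block, voom on recovered fragments, fits of 2 groups and leaving out each library.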

Additional observations from a re-analysis of the deposited data

Results flagged for a closer look

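For 5 of the 7 tested hydrolases the change with VD3 was called different between cultures with and without VPA, by the test of that difference itself. Of these calls, only that of PON2 was kept under all 19 alternatives and left-out libraries. The call was lost in 5 of them for PON1, 12 for AADAC, 13 for PON3 and 13 for EPHX2. On the log2(FPKM + 1) scale, the VD3 change with VPA minus that without was -0.70 for PON2, -1.19 for AADAC, -0.32 for EPHX2, -0.30 for PON3 and 0.67 for PON1. By the same limma test 44.3% of all genes were called. The AADAC value moved to -1.62 without VPA replicate 3, the lowest of the VPA libraries at 13.8 FPKM. EPHX2 changed by -0.14 with VD3 in the presence of VPA and by 0.19 in its absence, and neither change passed on its own.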

How the results depend on the processing

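Outside the interaction, 25 of 28 member calls were kept under all alternatives and left-out libraries, all 7 with VPA against Control among them. The count of members higher with VD3 was 2 under the replicate block and voom, and 1 to 2 with a library left out. Members lower in VD3VPA than in VD3 numbered 1 without the filter, with equal FPKM sums and with quantile normalization, and 1 to 2 with a library left out. For the interaction, 3 members were called and 2 lower at a pseudocount of 0.1, 1 called, 0 higher and 1 lower without the filter, and 2 higher and 2 lower with equal FPKM sums, quantile normalization or voom. With a library left out, 2 to 5 were called, 0 to 1 higher and 1 to 4 lower. The causes were not tested. The VPA difference in the log2 of CES1 over CES2 was 0.40 at a pseudocount of 0.1 (exact permutation p = 0.025, not adjusted). It was 0.32 to 0.60 with a library left out (exact permutation p = 0.01 to 0.125, not adjusted). The near-zero PON1 difference between VD3VPA and VD3 turned positive with equal FPKM sums (0.0010) and voom (0.018) and ran from -0.12 to 0.08 with a library left out, among them 0.082, 0.031, 0.013 and 0.059. The main fit did not pair the samples by replicate number. A correlation of deviations over 0.1 was seen in 3 of 18 same-numbered pairs and in 2 of 36 others. The median correlations were 0.021 and -0.016 in that order. Of the 12 libraries, 7 correlated best with their own number. Whether the numbers mark shared handling was not tested. A replicate block left the interaction of PON2 at -0.70 and added 5 calls: PON3 (adjusted p = 0.0204) and EPHX2 (0.0410) with VD3, EPHX1 in VD3VPA against Control (0.0264), PON1 in VD3VPA against VPA (0.0323) and the interaction of EPHX1 (0.0171), which made 6 interaction calls, 5 of them lower. The difference of AADAC between VD3VPA and VD3 passed in no alternative other than the fit of 2 groups. Depth limits CES1 and CES3, at 13 to 61 fragments a library.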

Other observations

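AADAC, PON1, PON3 and EPHX1 were each lowest in replicate 3 within the VPA group and within Control. The third VPA library had 13.8 FPKM of AADAC, 3.92 of PON1, 5.03 of PON3 and 56.3 of EPHX1. The third Control library had 6.19, 7.97, 2.66 and 33.9 FPKM of the same genes in that order. In VD3VPA, replicate 3 was lowest for AADAC (2.87 FPKM) and PON1 (3.65 FPKM) and not for PON3 or EPHX1. In VD3, replicate 3 was lowest for PON3 (2.27 FPKM) and EPHX1 (23.1 FPKM), and replicate 2 for AADAC (1.96 FPKM) and PON1 (3.31 FPKM). This was noticed after the values were seen and its cause was not tested. VDR, the vitamin D receptor, averaged 2.87 ± 0.0607 FPKM in VD3, 2.97 ± 0.808 in VPA, 3.43 ± 0.0869 in VD3VPA and 3.21 ± 0.218 in Control (SD, n = 3 each). It was called in none of the 6 limma comparisons, with the lowest adjusted p at 0.134 for the interaction. VDR was also named after its values were seen.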
